A study of Mus musculus with 4 samples.

Results

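Non-classical monocytes of the aged mouse lung were described in 4 single-cell RNA libraries, 2 from mice given BPTES, a small-molecule inhibitor of glutamine breakdown, and 2 from mice given the vehicle DMSO. A barcode was a member when it held at least 1 UMI (unique molecular identifier, one count per captured transcript) of Ptprc, the gene of CD45, and at least 1 UMI of 3 or more of Ace, Treml4, Adgre4, Spn and Cd300e. It also had at most 1 UMI each of Ly6c2, F13a1, Cd3e and Cd79a and fewer than 5 UMIs summed over C1qa, C1qb and C1qc. These limits found 3147 members among 68675 barcodes kept for having no fewer than 500 genes and 1000 UMIs, with mitochondrial UMIs at 10% or below. All mice were male C57BL/6, 19 months old when treatment began, and received BPTES or DMSO for 1 month. Lungs were digested with Liberase for 1 h, and each library was made from 20000 CD45-negative and 9000 CD45-positive sorted cells of the same tissue. The labels do not say how many animals gave each library, so the p-values below measure only the spread between these libraries.

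Non-classical monocytes are blood monocytes that crawl along the inner wall of small vessels and take up debris and damaged endothelial cells. In the mouse they mature from classical Ly6c2-high monocytes, depend on the nuclear receptor NR4A1 and on signals through CSF1R, and carry high levels of the Fc receptor encoded by Fcgr4. Cells take up glutamine through membrane transporters and can break it down to glutamate, which feeds the citric acid cycle and glutathione synthesis.

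The libraries held 260346570 to 342107092 UMIs, and 15349 to 20549 barcodes per library passed the filters. Ptprc was detected in 34.4% to 38.4% of the kept barcodes, a share that the fixed mixing of sorted cells sets in part. BPTES replicates 1 and 2 held 906 and 811 members, and DMSO replicates 1 and 2 held 411 and 1019. Members had median depths of 15749, 15079, 17053 and 15800 UMIs in that order. DMSO replicate 1 thus gave the fewest members and the smallest sum, 7750183 UMIs, against 19457281 in DMSO replicate 2. Between 65 and 104 kept barcodes were shared by any pair of libraries, and 0 of these were members in both.

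The 5 defining genes were detected together in most members. All 5 had a UMI in 2364 members (75.1%), 4 in 550 and 3 in 233. Ace, the angiotensin-converting enzyme gene (chromosome 11, 105967945 to 105989964 on the plus strand of mm10), had a UMI in 96.7% to 97.4% of members per library. Adgre4, an adhesion G protein-coupled receptor gene (chromosome 17, 55749984 to 55853662, plus strand), had one in 97.1% to 98.7%. The shares were 94.2% to 95.6% for Treml4, a receptor gene of the TREM family, and 93.7% to 96.1% for Spn, which encodes the sialoglycoprotein CD43. Cd300e, which encodes an activating receptor of the CD300 family, was the least often detected, in 79.2% to 86.4% of members. In the other Ptprc-positive cells of the same libraries, Spn was found in 34.9% to 43.5% and Cd300e in 2.73% to 4.78%. These genes chose the members, so their levels describe the class and support nothing further.

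Eno3 and Fcgr4, which the rule did not use, were lower just outside the marker limit in every library, while Nr4a1 and Ear2 were less even. Cells just outside it, 638 barcodes with 2 of the 5 markers and every other condition met, had 4.81 to 13.3 CPM (UMIs of the gene scaled to the total UMIs of those cells) of Eno3, which encodes a muscle-type enolase. Members with 3 of the 5 had 20.6 to 56.2 CPM, and all members 151 to 228 CPM. Fcgr4 stepped the same way, from 22.9 to 29.7 CPM outside to 76.3 to 147 CPM in members with 3 markers and 287 to 352 CPM in all members. Cdh5, an endothelial gene, had 182 to 403 CPM outside, 57.3 to 249 CPM in members with 3 markers and 63.2 to 119 CPM in all members. Median depths were 16038.5 to 21882 UMIs outside and 6689 to 11026 UMIs in members with 3 markers. The part of other cell types and of depth in these steps was not tested. Nr4a1 was higher in members with 3 markers than in cells with 2 in 3 libraries, but in DMSO replicate 1 it had 484 against 559 CPM. Ear2, a ribonuclease gene, was also higher with 3 markers in 3 libraries, going from 435 to 779, 186 to 911 and 417 to 531 CPM in BPTES replicate 1 and DMSO replicates 1 and 2. In BPTES replicate 2 it showed no step, at 517 and 519 CPM. The limit on Ly6c2 divided cells that were more alike in Eno3: 63 barcodes with 2 Ly6c2 UMIs had 90.8 to 220 CPM, beside 139 to 187 CPM in the 238 members with 1. The 63 were 11 and 11 barcodes in BPTES replicates 1 and 2 and 15 and 26 in DMSO replicates 1 and 2. Fcgr4, in the same order, had 415, 276, 142 and 177 CPM in the 63, against 300, 268, 272 and 283 CPM in members with 1 Ly6c2 UMI. In all, 199 barcodes, the 63 among them, were kept out by Ly6c2 at 2 or more, 109 by F13a1, 138 by the C1q genes and 215 by Cd3e or Cd79a, each with every other condition met. These were uneven between libraries. In the same order of libraries, Ly6c2 kept out 39, 38, 33 and 89, and F13a1 17, 31, 21 and 40. The C1q genes kept out 55, 50, 10 and 23, and Cd3e or Cd79a 55, 37, 49 and 74. The part of these limits in the shares below was not tested.

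Most listed genes that the rule did not use separated members from classical monocytes, the class these lists were set against. Of 24 listed genes of non-classical monocytes, 23 were higher in members than in classical monocytes in all 4 libraries, with a median log2 ratio of 2.20. Classical monocytes were the 1596 cells with at least 2 UMIs each of Ly6c2 and F13a1 and fewer than 3 of the 5 markers. Of 18 listed genes of classical monocytes outside the rule, 17 were lower in members in all 4 libraries, with a median log2 ratio of -1.89. Because the members were picked by genes of the same cells, these are descriptions without a test, as are all levels set against other classes below. The exceptions were each a single gene: Cebpb, a transcription factor gene, overlapped at 2049 ± 132 CPM in members and 1897 ± 116 CPM in classical monocytes (SD, n = 4), and Klf4, another such gene, was higher in members.

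Outside the genes of the membership rule, which are left out of this ranking, the largest ratios over classical monocytes belonged to Fabp4, Eno3, Slc12a2 and Pparg. The ranking took genes with a mean of at least 100 CPM in the higher class that differed in the same direction in all 4 libraries. Fabp4, a fatty acid binding protein gene (chromosome 3, 10204088 to 10208576, minus strand), had 89.8, 106, 174 and 181 CPM in members of BPTES replicates 1 and 2 and DMSO replicates 1 and 2. In classical monocytes it had 0.205 to 3.75 CPM, a ratio of 90.4 between the means. Endothelial cells and alveolar macrophages, known sources of Fabp4, held means of 53.5 and 98.0 CPM, beside 138 CPM in members. Eno3 was 187 ± 37.1 CPM in members and 2.29 ± 0.761 in classical monocytes, a ratio of 81.9. Pparg, the lipid-sensing nuclear receptor gene, stood at 663 ± 54.5 against 17.1 ± 0.838 CPM. Cd36, the fatty acid and scavenger receptor gene, stood at 1495 ± 111 against 74.9 ± 11.3 CPM. All 4 libraries of members lay above all 4 of classical monocytes for each of these genes.

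Surface and signalling genes followed with ratios from 12.6 to 47.6. Slc12a2, the sodium-potassium-chloride cotransporter gene, had 266 ± 37.4 CPM in members and 5.59 ± 2.34 in classical monocytes. Fcgr4 had 324 ± 27.6 against 17.5 ± 5.16 CPM, and Cd274, which encodes the checkpoint ligand PD-L1, 291 ± 25.3 against 18.4 ± 6.49 CPM. Pecam1, an adhesion molecule gene shared with endothelium, had 461 ± 94.1 against 36.6 ± 3.43 CPM. The remaining genes of the 20 with the largest ratios were Ikzf3, Ear2, Setbp1, Itgax, Dusp16, Ets1, Tcf7l2, Lair1, Rps6ka2 and the near-identical survival genes Bcl2a1a, Bcl2a1b and Bcl2a1d. Reads can be split among the Bcl2a1 copies, and Ear2 too belongs to a family of close copies, so single levels in these families are uncertain.

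At the other end, with the rule genes Ly6c2 and F13a1 left out, Vcan, Cd177 and Ccr2 had the smallest ratios. Vcan, which encodes the matrix proteoglycan versican, had 7.42 ± 2.26 CPM in members and 473 ± 147 in classical monocytes. Ccr2, the chemokine receptor gene that guides classical monocytes out of the marrow, had 60.8 ± 23.4 against 958 ± 189 CPM. Fn1, the fibronectin gene, had 126 ± 22.9 against 1780 ± 71.5 CPM. The other genes of the 10 with the smallest ratios were Cd177, Gas7, Ifi211, Nrg1, Ccl2, Capg and Uck2. The regulator genes of the class differed by less: Nr4a1 had 1047 ± 65.1 CPM in members and 545 ± 117 in classical monocytes, Cx3cr1 237 ± 27.02 against 134 ± 16.8, and Csf1r 751 ± 51.8 against 398 ± 14.2. Pou2f2, a lymphoid and myeloid transcription factor gene, separated them further, at 731 ± 36.3 against 166 ± 23.1 CPM.

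**Figure D1:**
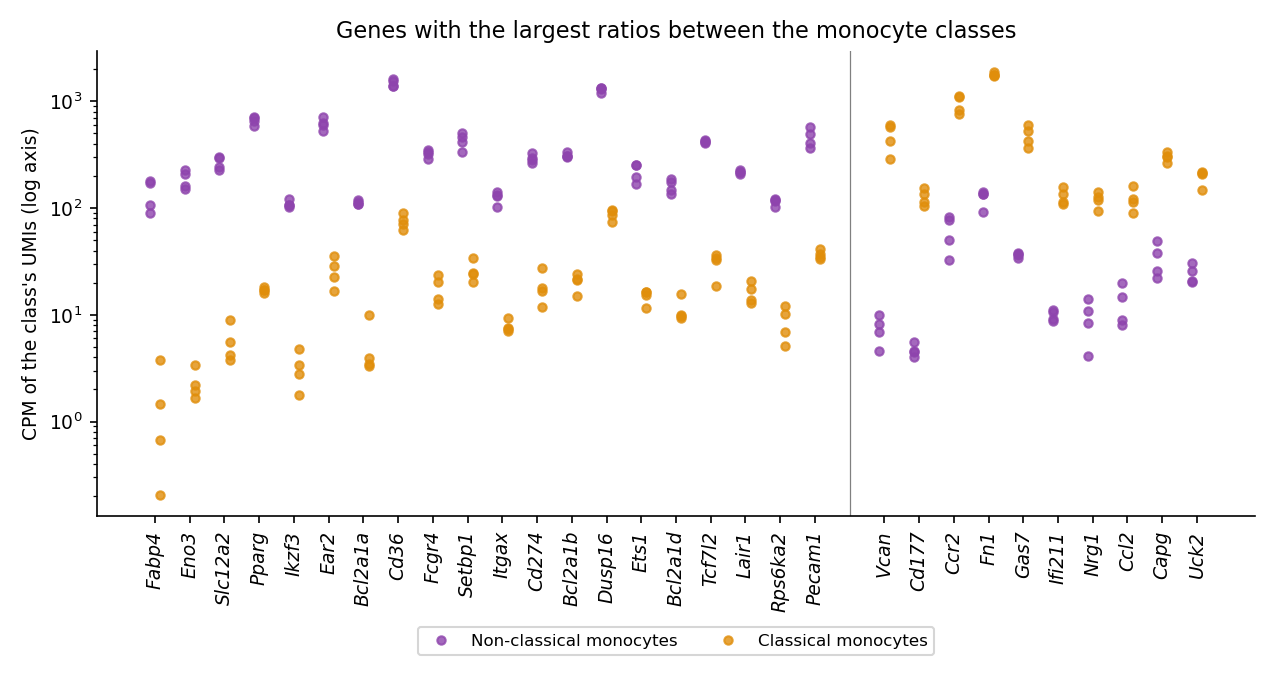
CPM on a log axis of the 20 genes with the largest and the 10 with the smallest ratio of members over classical monocytes, each point 1 of 4 libraries, with genes of the membership rule left out. Fabp4 lies at 89.8 to 181 CPM in members and at most 3.75 CPM in classical monocytes, and Vcan lies the other way round.

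Some member barcodes carried a second programme. The neutrophil rule, at least 3 of Csf3r, Cxcr2, Retnlg, Mmp9 and Hdc detected, was also met by 348 members (11.1%), the share being 10.2% and 10.5% under BPTES and 13.9% and 11.2% under DMSO. The dendritic cell rule was also met by 51 members, the alveolar macrophage rule by 36 and the NK cell rule by 4. The 348 had median depths of 22286 to 26562 UMIs per library, against 14466 to 15988 in the other members and 9094 to 10428 in cells classed as neutrophils. They held a mean of 9972 CPM of S100a8, a calprotectin subunit gene, beside 15.2 CPM in the other members and 20676 CPM in neutrophils. Eno3, used by neither rule, had 138 ± 37.7 CPM in them, 197 ± 38.8 in the other members and 19.8 ± 3.49 in neutrophils (SD, n = 4), and Fcgr4 had 289 ± 39.9, 330.1 ± 27.7 and 84.2 ± 6.95 CPM. In these unused genes the 348 thus held RNA of both classes, and whether they were 2 cells in 1 droplet was not tested.

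A pair of inflammatory genes, picked after their values were seen, is shown for those 348 barcodes. Cxcl2, a neutrophil-attracting chemokine gene, had 2368 ± 289 CPM in them and 218 ± 67.7 CPM in the other members, beside 4296 ± 611 CPM in neutrophils. Il1b, the interleukin-1 beta gene, had 5305 ± 428 against 1066 ± 132 CPM, beside 8336 ± 717 CPM in neutrophils. In both genes the 348 lay between the other members and neutrophils. The gene comparisons of BPTES with DMSO in members were also run without the 433 members that met any second rule, an alternative chosen after seeing the data.

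**Figure D2:**
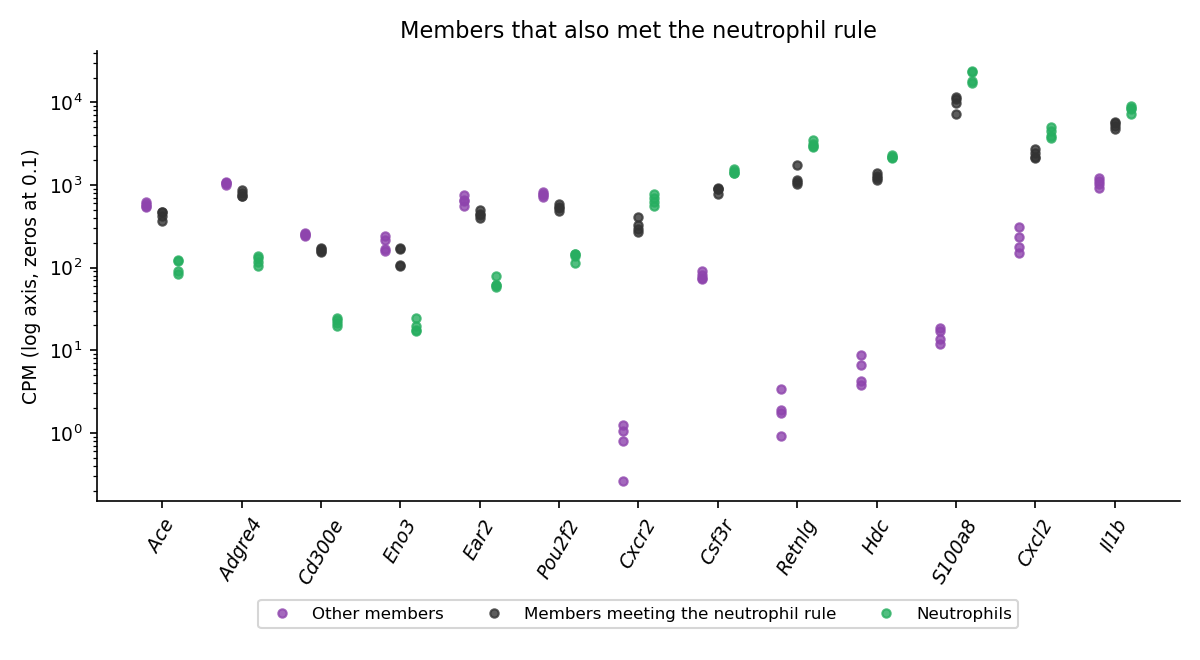
CPM on a log axis in the 348 members that also met the neutrophil rule, in the other members and in cells classed as neutrophils, each point 1 of 4 libraries. Ace, Adgre4 and Cd300e belong to the membership rule and Cxcr2, Csf3r, Retnlg and Hdc to the neutrophil rule, so the choice of cells set their order. Of the genes in neither rule, Eno3 in the 348 lies at 103 to 174 CPM, above the 17.04 to 24.7 CPM of neutrophils, and S100a8 lies far above its 12.0 to 18.5 CPM in the other members.

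Members took a larger share of the Ptprc-positive cells under BPTES in these libraries, but the difference did not pass the test. The share was 16.2% and 13.1% in BPTES replicates 1 and 2 and 7.36% and 12.9% in DMSO replicates 1 and 2. The groups did not overlap, but BPTES replicate 2 and DMSO replicate 2 were nearly equal, and DMSO replicate 1 stood apart. They overlapped with all kept cells as the denominator (4.89% in BPTES replicate 2, 4.96% in DMSO replicate 2), with cells thinned to 3000 UMIs (13.4% and 14.9%) and without members meeting a second rule (11.17% and 11.18%). The means were 14.7% ± 2.23 and 10.1% ± 3.92 (SD, n = 2). With cell numbers tested by the quasi-likelihood method of edgeR, the log2 difference was 0.53 (SE 0.270) with an adjusted p of 0.0979, where 4 of 9 classes (44.4%) were called. The exact permutation test, two-sided, gave 0.333, the smallest p that 2 libraries against 2 allow. Without DMSO replicate 1 the edgeR log2 difference was 0.18 (adjusted p of 0.595), and without DMSO replicate 2 it was 0.99 (adjusted p of 0.0174), the lone DMSO library being assumed to vary like the others. The direction turned under the doublet limit set at the start, which left 59, 113, 170 and 237 members. That limit left out cells with 2 or more UMIs over 10 marker genes of other cell types, Sftpc included, or above 3 times the median depth. The limit cut only the monocyte classes, not the Ptprc-positive total. A Sftpc UMI was found in 97.2% and 94.7% of members under BPTES and in 65.2% and 88.03% under DMSO. In T cells, which do not make surfactant, the shares were 97.7% and 94.9% against 64.2% and 89.9%. With each cell thinned to 5000 UMIs they were 69.2% and 64.6% against 32.03% and 51.3% in members, and 70.7% and 59.4% against 26.7% and 50.7% in T cells. Sftpc was found at a like share in both classes and in a larger share under BPTES. The limit removed 93.5% and 86.1% of members under BPTES and 58.6% and 76.7% under DMSO. The members' share was then 1.06% and 1.82% under BPTES and 3.04% and 3.002% under DMSO, with an edgeR log2 difference of -1.06 and an adjusted p of 0.0362. With Sftpc out of that limit, an alternative chosen after seeing the data, the edgeR log2 difference was 0.54, with an adjusted p of 0.106. The part of Sftpc in the turn of direction was not tested. The 4 called classes were B cells, lower at 13.1% and 10.2% under BPTES and 23.5% and 21.3% under DMSO, and 3 higher ones. C1q-rich macrophages stood at 1.28 on the log2 scale (edgeR adjusted p of 0.0034), alveolar macrophages at 1.01 (0.0214) and dendritic cells at 0.73 (0.0446). Of the 9 classes, edgeR called 0 with cells thinned to 3000 UMIs, without BPTES replicate 1 or without BPTES replicate 2, and 3 with all kept cells as the denominator. It called 2 with 2 or more markers or without DMSO replicate 1. Classical monocytes stood at 0.56 (0.0979), and shares of 1 total move against each other.

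**Figure D3:**
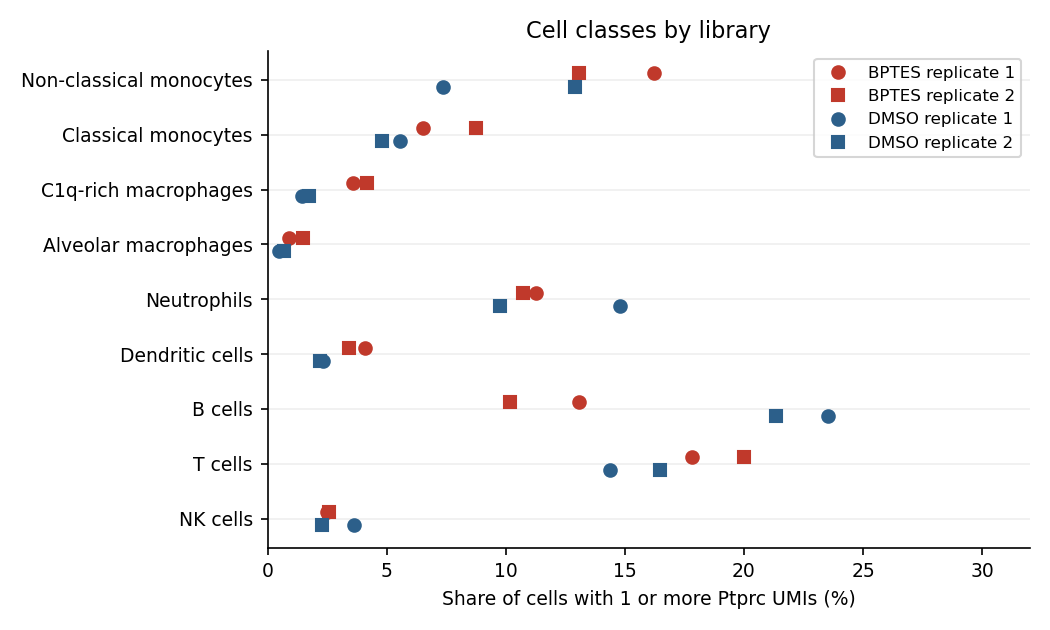
Share of the cells with at least 1 Ptprc UMI that fell in each of 9 marker-rule classes, 1 point per library. Non-classical monocytes lie at 16.2% and 13.1% under BPTES and at 7.36% and 12.9% under DMSO, with DMSO replicate 1 the lowest.

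Gene levels in members were then compared between BPTES and DMSO, and the number of calls depended on the test. The edgeR quasi-likelihood test on UMIs summed per library called 0 of 14472 genes at an adjusted p of 0.05 (0%), with 1041 (7.19%) at an unadjusted p under 0.05, of which 561 (3.88%) were higher under BPTES and 480 (3.32%) lower. DESeq2 called 52 of 11666 genes (0.446%), 35 higher (0.3%) and 17 lower (0.146%). The edgeR test without its filter on low counts called 60 of 21835 (0.275%), 45 higher (0.206%) and 15 lower (0.0687%). These lists shared 40 genes in the same direction, 76.9% of the DESeq2 calls and 66.7% of the unfiltered edgeR calls. Values below come from the filtered edgeR test over all members unless DESeq2 or another setting is named, so no gene below counts as changed. Named genes that edgeR called under the doublet limit set at the start are given with the MHC class II genes. Fold changes are log2 of BPTES over DMSO. From here on, CPM of single genes in members carry edgeR's TMM correction for library composition. Summed CPM of marker genes and the class means of Mmp12 and Arg1 do not carry it.

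The 10 genes with the smallest p had an adjusted p of 0.434, or 0.469 for Grb14. Fabp4 had 90.4 and 105 CPM under BPTES and 174 and 181 under DMSO, a log2 fold change of -0.86 (SE 0.0914). Thbs1, the gene of the matrix protein thrombospondin-1, had 197 and 173 against 355 and 317 CPM, also -0.86 (SE 0.0949). Ccl4, a chemokine gene, had 106 and 103 against 66.0 and 66.8 CPM, 0.65 (SE 0.0641). Libraries of a group lay close together in these 3 genes and the groups did not overlap, which the choice by smallest p favours. Of all genes tested, 19.4% were higher and 19.5% lower in both BPTES libraries. With second-rule members left out, Ccl4 had 110.3 and 95.3 against 63.7 and 37.3 CPM, 1.07 (SE 0.246). By DESeq2 the adjusted p was 2.88e-09 for Fabp4, 1.68e-10 for Thbs1 and 5.14e-05 for Ccl4.

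The other 7 genes, Myh11, Hc, Acta2, Mmp12, Arg1, Cxcl15 and Grb14, were higher in both BPTES libraries, most of them at low CPM. Myh11, a smooth muscle myosin gene, had 19.7 and 21.2 CPM under BPTES and 3.37 and 1.90 under DMSO, 3.07 (SE 0.256). Hc, the complement C5 gene, had 38.1 and 33.5 against 8.16 and 4.83 CPM, 2.55 (SE 0.241). Cxcl15, a chemokine gene of lung epithelium, had 81.7 and 102 against 35.6 and 41.3 CPM, 1.24 (SE 0.140). Cxcl15 without members meeting a second rule had 97.1 and 113 against 2.71 and 52.4 CPM, 1.76 (SE 0.823). In that setting Hc in DMSO replicate 1 was 1.18 in place of 8.16 CPM, and Mmp12 had 0.771 and 8.27 against 0.507 and 0.599 CPM, in place of 7.53 and 12.6 against 0.906 and 1.03. Mmp12 was thus lower in all 4 libraries, with BPTES replicate 1 the most so. Over all kept cells of the libraries, without TMM, Cxcl15, Hc and Myh11 were also higher in both BPTES libraries, as were 21.6% of the genes tested in members. Cxcl15 had 597 and 571 against 153 and 305 CPM, Hc 217 and 201 against 54.6 and 90.6, and Myh11 33.4 and 49.1 against 25.8 and 27.6. The rest of the 7 genes are not given over all kept cells. Mmp12 and Arg1, genes of activated macrophages, had a mean of 618 and 357 CPM in C1q-rich macrophages, beside 5.52 and 10.7 CPM in members. The part of RNA from other cells in these values was not tested.

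Markers of some other cell types also leaned one way between the treatments inside members. Of 10 epithelial markers 4 were higher under BPTES at an unadjusted p under 0.05 (40%, beside 3.88% of all genes), with a median log2 fold change of 0.77. They summed to 2034 and 3823 CPM under BPTES and 1474 and 1098 under DMSO, none of them at 0 over all libraries. With second-rule members left out, 1 was higher (beside 4.62% of all genes), with a median of 1.30. The sums were then 2410 and 3919 against 110.5 and 1363 CPM. No second rule was for epithelial cells. The 5 members richest in Sftpc, the surfactant protein C gene, held 82.7% to 95.0% of its UMIs in each library. Of 10 neutrophil markers 6 were lower (60%, beside 3.32%), with a median of -0.42, and they summed to 3375 and 4806 against 6264 and 5396 CPM. Without members meeting a second rule those sums were 227 and 230 against 278 and 274 CPM, and 2 of the 10 were lower (beside 3.39% of all genes). The neutrophil rule is among the second rules, so this drop was set in part by the choice of cells. Of 10 endothelial markers 1 was higher, Pecam1 (10%, beside 3.88%), with a median of 0.28 and sums of 1733 and 1624 against 1152 and 1522 CPM. All 10 had positive fold changes, the lowest 0.14, and 4 were higher in both BPTES libraries (40%, beside 19.4%). Pecam1 was also among the genes with the largest ratios of members over classical monocytes, so it is no marker of endothelium alone here. With second-rule members left out, 6 of the 10 endothelial markers were higher (beside 4.62%), with a median of 0.35. Of 10 alveolar macrophage markers 3 were higher (30%, beside 3.88%), with a median of 0.20, and their sums overlapped at 381 and 528 against 484 and 269.8 CPM. One of the 3, Marco, a scavenger receptor gene, had 5.02 and 13.1 CPM under BPTES and 0 in both DMSO libraries. Marco could pass the low-count filter only through the BPTES libraries, so its direction was set in advance and supports nothing further. It is also a gene of the alveolar macrophage rule. With second-rule members left out, 1 of the 10 alveolar macrophage markers was higher (beside 4.62%), with a median of 0.41. Lymphocyte markers were at low levels in members, whose rule caps Cd79a and Cd3e. Of 10 B cell markers 2 were lower (20%, beside 3.32%) and 6 were lower in both BPTES libraries (60%, beside 19.5%). Their median was -0.83, and the sums overlapped at 123 and 156 against 176 and 153 CPM. Of 7 tested NK cell markers 2 were lower (28.6%), with a median of -0.89, and of 9 tested T cell markers 1 was lower (11.1%) and 5 were lower in both BPTES libraries (55.6%). Summed T cell markers reached at most 30.2 CPM and summed NK cell markers 45.1 CPM in a library. The part of these cell types in the results below was not tested.

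Heat-shock genes leaned to higher levels under BPTES. Of 16 chaperone and heat-shock genes 9 were higher at an unadjusted p under 0.05 and 0 lower (56.2%, beside 3.88% of all genes), and 14 were higher in both BPTES libraries (87.5%, beside 19.4% of all genes). The median log2 fold change was 0.43, beside -0.0014 over all genes tested. Examples here and in the lists below were picked after their values were seen. Dnaja1, which encodes an HSP40 co-chaperone, had 263 and 382 CPM under BPTES and 170 and 182 under DMSO, 0.87 (SE 0.183), with an adjusted p of 0.000215 by DESeq2. Hsph1, an HSP110 gene, had 38.9 and 90.1 against 13.3 and 19.5 CPM, 1.93 (SE 0.446), and Hsp90aa1, an HSP90 gene, 340 and 549 against 265 and 296 CPM, 0.66 (SE 0.229). BPTES replicate 2 was the highest library in all 3 genes, and BPTES replicate 1 still lay above both DMSO libraries. Hspa1a overlapped between the groups, and it and Hspa1b are near-identical copies whose reads may be split. Hspa4 was the 1 gene lower in both BPTES libraries, at -0.044 (SE 0.0564).

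Other classes of the same libraries showed part of this lean. Without TMM, 13 of the 16 genes were higher in both BPTES libraries in members, 10 in classical monocytes, 10 in B cells, 8 in T cells, 7 in neutrophils and 12 over all kept cells. Of the 14472 genes tested in members, 19.8%, 21.2%, 12.8%, 18.1%, 24.5% and 21.6% were higher in both BPTES libraries in these classes, in the same order. Without members meeting a second rule, 11 of 16 were higher at an unadjusted p under 0.05 (beside 4.62% of all genes), with a median of 0.46.

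Genes of MHC class I antigen presentation leaned to lower levels by smaller amounts. Of 20 genes 10 were lower under BPTES at an unadjusted p under 0.05 and 0 higher (50%, beside 3.32% of all genes), and 14 were lower in both BPTES libraries (70%, beside 19.5%). The median was -0.18. H2-K1, a classical class I heavy chain gene, had 1006 and 997 CPM under BPTES and 1203 and 1236 under DMSO, -0.29 (SE 0.0505), with an adjusted p of 0.0116 by DESeq2. H2-Q7, which has close copies such as H2-Q6, had 74.7 and 77.6 against 102 and 119 CPM, -0.55 (SE 0.0927), with 0.0132. Psmb9, an immunoproteasome subunit gene, had 73.6 and 75.5 against 92.7 and 95.7 CPM, -0.34 (SE 0.0640). Groups were apart in all 3 genes. Nlrc5, which encodes the transactivator of class I genes, was the 1 gene higher in both BPTES libraries, at 0.16 (SE 0.0750), and Tapbp, the tapasin gene, stood at -0.0077 (SE 0.0593). Without members meeting a second rule 13 of 20 were lower (beside 3.39% of all genes). Without TMM, 14 of the 20 were lower in both BPTES libraries in members, 18 in T cells, 10 in B cells, 4 in classical monocytes, 1 in neutrophils and 10 over all kept cells. The shares of the 14472 genes lower in both BPTES libraries were 19.3%, 24.6%, 24.6%, 25.5%, 20.3% and 35.9%, in that order. The counts for classical monocytes and neutrophils were thus below the share of all genes.

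**Figure D4:**
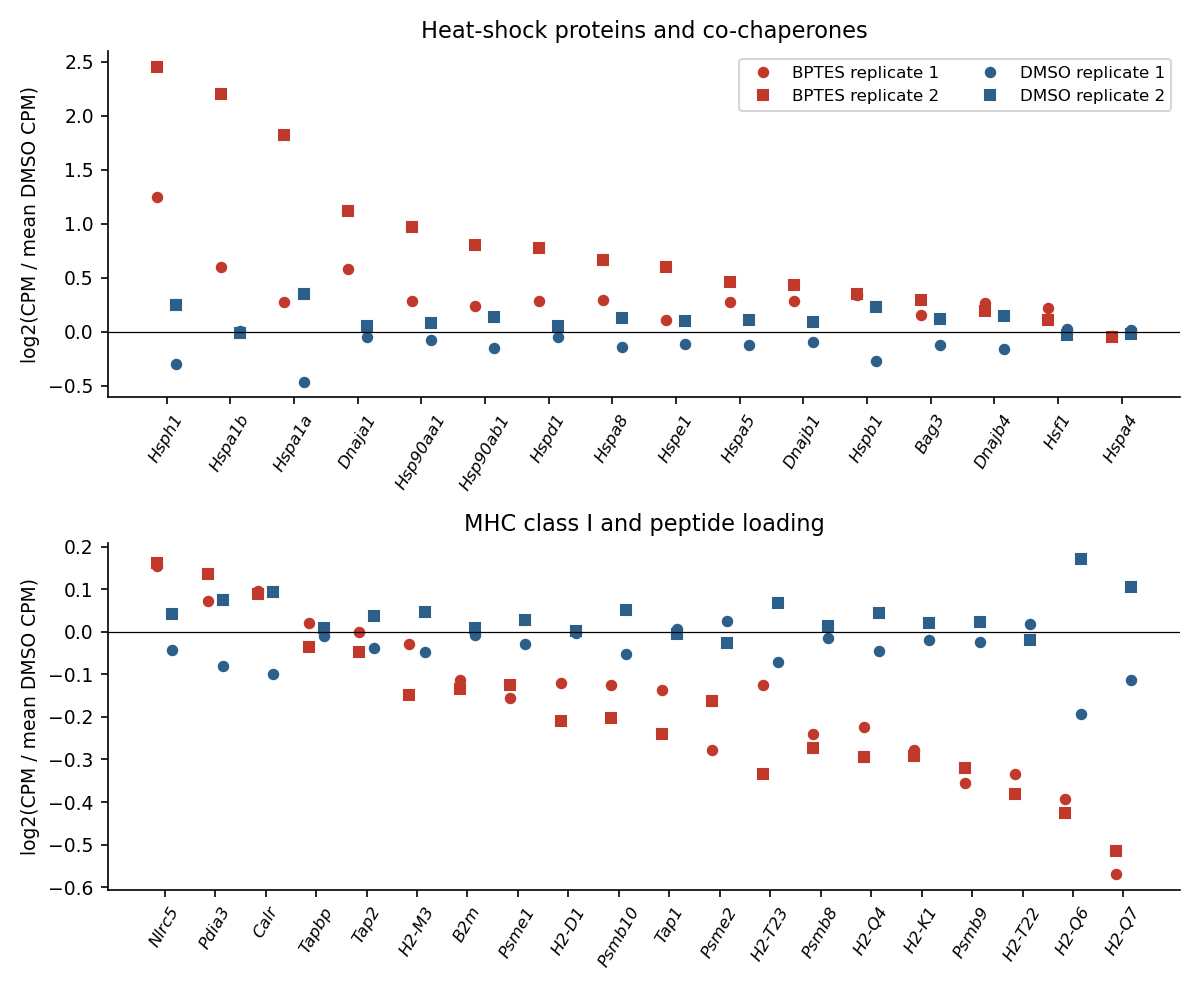
Each gene's level in members of each library as log2 of its CPM over the mean of the DMSO libraries, for heat-shock genes and for MHC class I genes. Both BPTES points lie above both DMSO points in 14 of 16 heat-shock genes and below them in 14 of 20 class I genes.

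Identity genes of the class had a median near that of all genes. Of 24 listed genes 1 was higher and 2 were lower under BPTES at an unadjusted p under 0.05 (4.17% and 8.33%, beside 3.88% and 3.32% of all genes), and 7 were lower in both BPTES libraries (29.2%, beside 19.5%). The median was 0.0018, beside -0.0014. Eno3 was the lowest, with 163 and 150 CPM under BPTES and 210 and 228 under DMSO, -0.49 (SE 0.0762), and an adjusted p of 0.00202 by DESeq2. An Eno3 UMI was found in 73.1% and 73.5% of members under BPTES and 77.4% and 79.3% under DMSO. With each cell thinned to 5000 UMIs the shares were 45.1% and 45.3% against 54.2% and 57.9%, beside 2.27% to 4.63% in T cells. Thinning left out 43, 62, 27 and 81 members, in the order BPTES replicates 1 and 2, DMSO replicates 1 and 2. Gngt2, a G protein gamma subunit gene, had 768 and 759 against 877 and 916 CPM, -0.23 (SE 0.0534), and Cd36 had 1624 and 1556 against 1410 and 1396 CPM, 0.18 (SE 0.0519).

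Regulator, surface and survival genes ranged from -0.49 for Bcl2 to 0.47 for Pecam1. Nr4a1 had 1077 and 978 CPM under BPTES and 1011 and 1129 under DMSO, -0.059 (SE 0.0823). Csf1r stood at -0.077 (SE 0.0851), Pou2f2 at 0.019 (SE 0.0777), Klf2, a quiescence factor gene, at 0.099 (SE 0.0810), Itgal, the LFA-1 integrin alpha chain gene, at 0.084 (SE 0.0840) and Cd274 at 0.11 (SE 0.0925). The groups overlapped in these 6 genes. In Cx3cr1 (-0.21, SE 0.102), Fcgr4 (-0.18, SE 0.0807) and Cebpb (-0.12, SE 0.0706) both BPTES libraries were lower, as in 19.5% of all genes tested. Bcl2, an anti-apoptotic gene, had 253 and 234 against 358 and 326 CPM, -0.49 (SE 0.0766), and Pecam1 had 498 and 573 against 368 and 404 CPM, 0.47 (SE 0.0919), with adjusted p of 0.0007 and 0.00364 by DESeq2.

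Genes of classical monocytes, as far as members held them, leaned lower under BPTES. Of 18 listed genes outside the membership rule 6 were lower and 0 higher at an unadjusted p under 0.05 (33.3%, beside 3.32% of all genes), 11 were lower in both BPTES libraries (61.1%, beside 19.5%), and the median was -0.19. Ccr2 had 50.9 and 32.5 CPM under BPTES and 83.5 and 76.6 under DMSO, -0.93 (SE 0.215), with an adjusted p of 0.00987 by DESeq2. A Ccr2 UMI was found in 27.8% and 14.9% of members against 31.1% and 31.99%, and at 5000 UMIs per cell in 15.3% and 7.88% against 19.0% and 18.7%, beside 3.25% to 4.57% of B cells. Cd14, the lipopolysaccharide co-receptor gene, had 267 and 292 against 331 and 315 CPM, -0.21 (SE 0.0699). Lyz2, the lysozyme gene, overlapped at 0.071 (SE 0.150). Without members meeting a second rule 4 of the 18 genes were lower (beside 3.39%) and Ccr2 stood at -1.01 (SE 0.257).

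Among genes of glutamine use more were higher than lower. Of 28 tested genes 4 were higher and 1 lower at an unadjusted p under 0.05 (14.3% and 3.57%, beside 3.88% and 3.32% of all genes). Both BPTES libraries were higher in 6 (21.4%, beside 19.4%) and lower in 2 (7.14%, beside 19.5%), and the median was 0.041. Glul, whose enzyme makes glutamine, had 54.0 and 64.4 against 46.0 and 47.3 CPM, 0.34 (SE 0.106). Slc38a1, a glutamine importer gene, had 134 and 122 against 161 and 159 CPM, -0.32 (SE 0.0708). The groups were apart in both genes, while the importer genes Slc1a5 (-0.044, SE 0.117) and Slc38a2 (0.097, SE 0.0907) overlapped. Gclc, whose product catalyses the first step of glutathione synthesis from glutamate, had 70.1 and 80.3 against 38.7 and 45.4 CPM, 0.83 (SE 0.115), with an adjusted p of 0.000259 by DESeq2. Gclc stood at 126 and 146 against 70.2 and 82.1 CPM over all kept cells, without TMM. Atf4, the regulator gene of the amino acid response, overlapped at 0.079 (SE 0.0709), and of 25 tested genes of its list 1 was higher (4%, beside 3.88%) and 0 lower, with a median of 0.041.

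Interferon-stimulated genes leaned lower and cytokine genes higher. Of 29 interferon-stimulated genes 4 were lower and 0 higher at an unadjusted p under 0.05 (13.8%, beside 3.32% of all genes), 9 were lower in both BPTES libraries (31%, beside 19.5%) and 3 higher, with a median of -0.20. Isg15, a ubiquitin-like antiviral gene, had 28.0 and 23.03 CPM under BPTES and 38.3 and 34.9 under DMSO, -0.51 (SE 0.126). The groups overlapped in Isg15 without members meeting a second rule, at 17.7 and 12.3 against 21.3 and 16.6 CPM, -0.31 (SE 0.219). Irf7 stood at -0.28 (SE 0.139) and Ifit3 at -0.26 (SE 0.558). Of 28 tested cytokine and NF-kB genes 4 were higher and 0 lower (14.3%, beside 3.88%), 10 were higher in both BPTES libraries (35.7%, beside 19.4%) and 1 lower, with a median of 0.13. Without members meeting a second rule 7 were higher and 0 lower (beside 4.62% and 3.39% of all genes), with a median of 0.21. Ccl3, a chemokine gene beside Ccl4, had 110.5 and 93.1 against 64.9 and 57.4 CPM, 0.74 (SE 0.115). Without TMM, both chemokine genes were also higher in both BPTES libraries in classical monocytes and neutrophils. The same held for 21.2% and 24.5% of the genes tested in members. Il10, an anti-inflammatory cytokine gene, had 50.7 and 67.2 against 15.02 and 34.7 CPM, 1.18 (SE 0.371). Tnf stood at 0.24 (SE 0.143) and Il1b at -0.069 (SE 0.0822). Cxcl2 turned from -0.088 (SE 0.125) to 0.65 (SE 0.159) without members meeting a second rule, with edgeR adjusted p of 0.909 and 0.557.

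The groups overlapped in the fixed MHC class II genes H2-Aa, H2-Ab1, H2-Eb1 and Ciita. H2-Aa had 514 and 795 CPM under BPTES and 718 and 700 under DMSO, -0.12 (SE 0.203), H2-Ab1 stood at -0.10 (SE 0.188), H2-Eb1 at 0.018 (SE 0.227) and Ciita, their transactivator gene, at 0.16 (SE 0.230). Cd74, the invariant chain gene, had 1310 and 1734 against 1830 and 1868 CPM, -0.28 (SE 0.136). The 5 members richest in H2-Aa held 19.6% to 31.6% of its UMIs in each library. Without members meeting a second rule Cd74 stood at -0.58 (SE 0.107), H2-Aa at -0.44 (SE 0.200), H2-Ab1 at -0.42 (SE 0.195) and H2-Eb1 at -0.39 (SE 0.201). Of 14 tested class II presentation genes 0 had an unadjusted p under 0.05 over all members, with a median of -0.018. In the setting without second-rule members 1 was lower (beside 3.39% of all genes), with a median of -0.10. The median of 10 dendritic cell markers turned from 0.38 to -0.48 between these settings, and the dendritic cell rule is among the second rules. Under the doublet limit set at the start, which left 579 members, edgeR called Cd74 at -1.09 (adjusted p of 0.0323), H2-Aa at -1.65 (0.0323), H2-Ab1 at -1.39 (0.0328) and H2-Eb1 at -1.80 (0.0238). Among other genes named here it called Dnaja1 at 1.01 (0.0323), Hsph1 at 2.03 (0.0351), Hsp90aa1 at 0.94 (0.0328) and Hspa1b at 2.05 (0.0238). Il10 at 2.33 (0.00499), Pecam1 at 0.72 (0.0323) and Ets1 at 0.73 (0.0493) were called too. Called lower were Thbs1 at -1.65 (0.0482), Fn1 at -1.63 (0.0238) and Hdc at -3.03 (0.0323). The members left had fewer than 2 UMIs over the 10 genes of the limit and at most 3 times the median depth. Sftpc, 1 of the 10, was found in a larger share of members under BPTES. The part of that choice in these calls was not tested. With Sftpc out of that limit Cd74, H2-Aa, H2-Ab1 and H2-Eb1 stood between -0.77 and -0.69, and edgeR called 0 of these 4.

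Lipid, antioxidant and mitochondrial genes gave counts in both directions or small medians. Of 24 lipid genes 2 were higher and 3 lower at an unadjusted p under 0.05 (8.33% and 12.5%, beside 3.88% and 3.32% of all genes), Plin2, a lipid droplet coat gene, standing at -0.24 (SE 0.0600). The cholesterol exporter genes Abca1 (-0.10, SE 0.143) and Abcg1 (-0.20, SE 0.131) overlapped. Of 20 antioxidant genes 1 was higher and 2 lower (5% and 10%), Gpx1, a glutathione peroxidase gene, at -0.26 (SE 0.0490) and Prdx5, a peroxiredoxin gene, at -0.29 (SE 0.0563). Of 30 genes of the citric acid cycle and respiratory chain 5 were lower and 0 higher (16.7%, beside 3.32%), 16 were lower in both BPTES libraries (53.3%, beside 19.5%), and the median was -0.088. Cdkn1a, the p21 gene, stood at -0.059 (SE 0.0654) and Trp53, the p53 gene, at 0.084 (SE 0.0747). Cdkn2a, the p16 gene, had 33 UMIs over all libraries and was not tested.

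**Figure D5:**
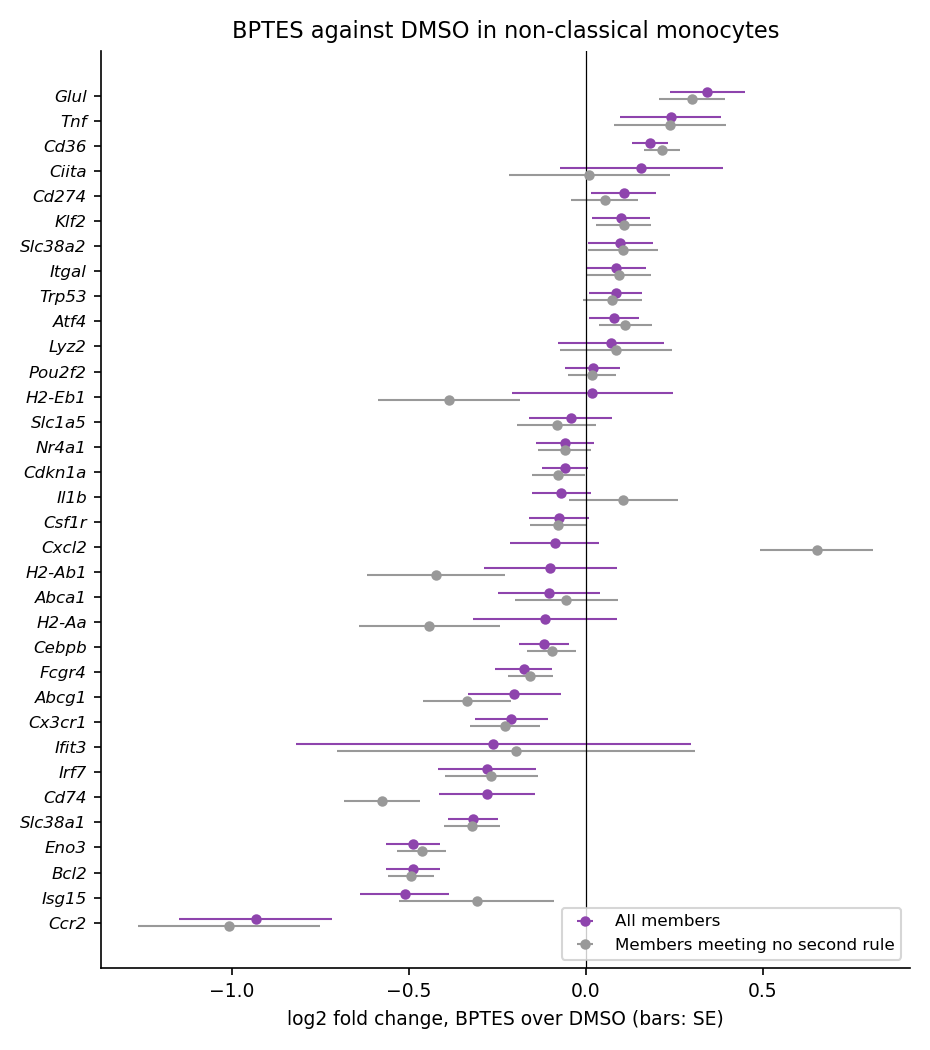
Log2 fold change of BPTES over DMSO with its SE for tested genes of the fixed set, over all members and over members that met no second rule. Ccr2 is the lowest over all members at -0.93, and Cxcl2 turns from -0.088 to 0.65 between the settings.

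The treatment difference was also set against that of classical monocytes in 1 edgeR model with a class-by-treatment term and the library as a block. The term called 0 of 14283 genes (0%), with 954 (6.68%) at an unadjusted p under 0.05, and its smallest adjusted p among named genes was 0.537. The 3 named genes with that adjusted p were Cxcl15, Klf2 and Nr4a1. For Cxcl15 the log2 fold change was 1.24 in members and 4.27 in classical monocytes (edgeR adjusted p of 0.014 there), a term of -3.03 (SE 0.366). For Klf2 it was 0.099 and 0.69, a term of -0.59 (SE 0.0787). For Nr4a1 the log2 fold change was -0.059 in members and 0.48 in classical monocytes, a term of -0.53 (SE 0.0877). For Ccr2 it was -0.93 and -0.46, a term of -0.49 (SE 0.181). None of these terms passed, and classical monocytes numbered 363, 543, 310 and 380 per library.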

How the data were processed

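Lung cells of 4 libraries (2 BPTES, 2 DMSO) were profiled with 10x 3' chemistry. The deposited values are whole-number UMI counts per gene and barcode for 31054 features; per the submitters' processing notes they came from Cell Ranger 8.0.1 with build mm10. Whether the authors removed doublets is not given in the sources used here. The members and gene lists were chosen with earlier results of these data known.

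UMIs were summed over the members of each library and tested with edgeR 4.0.16 (TMM, filterByExpr, quasi-likelihood test, two-sided, Benjamini-Hochberg over all genes tested), in R 4.3.3. DESeq2 1.42.0 was an alternative. Scripts were tested on simulated data. Counts of cells in 9 classes were tested with edgeR, with all Ptprc-positive cells as library size. No doublet caller was run. Members meeting a second class rule, or over a limit on foreign markers or depth, were left out in alternatives. Named genes were 36 fixed genes, called genes (with fewer than 5, the 10 smallest p), called list members, and the 20 largest and 10 smallest ratios to classical monocytes among genes of at least 100 CPM outside the membership rule; list examples were picked after their values were seen. Gene positions are from GENCODE M21. No label says whether the replicate numbers pair the libraries, so the main tests had no replicate block. Counting error alone limits a value by its UMIs, and 2 libraries per group limit every test. Some fixed or listed genes are not reported here by name.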

Additional observations from a re-analysis of the deposited data

How the results depend on the processing

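Counts of calls, the share and 45 genes were recomputed under the alternatives set at the start and under those chosen after seeing the data (the limit without Sftpc, and members left out by a second rule or the neutrophil rule); lists were recomputed without second-rule members alone, and ratios to classical monocytes under none. Genes called numbered 52 with DESeq2, 60 without the low-count filter, 22 under the planned doublet limit and 2 under that limit without Sftpc, with 0 under the other alternatives. The class-by-treatment term called 14 without the filter, 12 under the planned limit and 0 to 2 with 1 library left out. The share stood at -1.06 under the planned limit (edgeR adjusted p of 0.0362) and between 0.18 and 0.99 with 1 library left out. That limit counted Sftpc UMIs and removed 2568 of 3147 members, 93.5%, 86.1%, 58.6% and 76.7% per library. Whether replicate numbers pair the libraries is not given in the labels. The differences of replicate 1 minus 2 under BPTES and DMSO correlated at r = -0.071 over 8352 genes, which cannot decide it. With the replicate block 0 genes were called and the share stood at 0.58 (edgeR adjusted p of 0.192). Of 755 values of 45 genes, 681 kept direction and call, 30 became calls in the same direction and 44, in 17 genes, had the opposite sign. The latter were, under the planned limit, Cebpb 0.064, Slc38a2 -0.011, Il1b 0.27, Nr4a1 0.16, Cxcl2 0.44, Lyz2 -0.026, Slc1a5 0.11 and H2-Eb1 -1.80, the last also called (edgeR adjusted p of 0.0238). Without Sftpc in it they were Il1b 0.036, Nr4a1 0.051, Cxcl2 0.58, Ciita -0.13, Slc1a5 0.12 and H2-Eb1 -0.76. Without second-rule members Il1b was 0.11, Cxcl2 0.65 and H2-Eb1 -0.39, and without neutrophil-rule members Il1b 0.16 and Cxcl2 0.70. With 4 or more of the 5 markers Cxcl2 was 0.013 and H2-Eb1 -0.28, and H2-Eb1 was -0.0061 with Ly6c2 and F13a1 at 0 and -0.020 with the replicate block. With 1 library left out the ranges were -0.0064 to 0.19 for Slc38a2, -0.18 to 0.033 for Il1b, -0.29 to 0.057 for Abca1, -0.20 to 0.45 for Ciita, -0.46 to 0.16 for H2-Aa, -0.42 to 0.16 for H2-Ab1, -0.12 to 0.24 for Lyz2, -1.42 to 0.36 for Ifit3, -0.18 to 0.080 for Slc1a5, -0.079 to 0.11 for Pou2f2, -0.38 to 0.33 for H2-Eb1, -0.018 to 0.20 for Itgal, -0.17 to 0.023 for Csf1r, -0.12 to 0.0070 for Cdkn1a, -0.14 to 0.025 for Nr4a1 and -0.26 to 0.10 for Cxcl2. The cause was not tested. Low UMI sums limit genes of a few CPM, in DMSO replicate 1 most.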
